A study of Mus musculus with 51 samples.

Results

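The genes described are 10 mouse genes known as targets of the transcription factor p53: Cdkn1a, Mdm2, Ccng1, Bax, Trp53inp1, Sesn2, Gdf15, Bbc3, Perp and Plk2. They were listed by name, not by their values in these samples. A probe set, the group of short probes that reports on 1 transcript, was taken where the array's annotation gives it to 1 of these genes and to no other. That rule found 16 of 45101 probe sets, which report on 8 of the 10 genes. Bax and Gdf15 were not analysed here.

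p53 is held at a low level by Mdm2, a ubiquitin ligase that marks it for degradation and whose own gene p53 switches on. DNA damage and other stress release p53, which then raises the RNA of genes that stop the cell cycle, adjust metabolism or start apoptosis. The large T antigen of SV40 binds p53 and blocks its action on such genes. MIN6 cells are an insulinoma line of beta-cell character from mice that carried SV40 T antigen under the insulin promoter.

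The series holds 51 Affymetrix mouse arrays in 17 groups of 3 and asks how HMGN proteins, small nuclear proteins that bind nucleosomes, affect transcription. Primary mouse embryonic fibroblasts (MEFs) of C57BL/6 origin gave 18 arrays: HMGN1 knock out and HMGN1 wild type (WT), HMGN3 knock out and HMGN3 WT, and HMGN5 knock out and HMGN5 WT. SV40-transformed MEFs gave 24 arrays, of pools transduced with an empty vector, with HMGN1_N2swap or HMGN1_N3swap, or with HMGN5SE, HMGN5, HMGN3a, HMGN2 or HMGN1, the last 5 labelled OE for overexpression. MIN6 cells gave 9 arrays, of pools with an empty vector, HMGN1 OE or HMGN3a OE. All transduced cells were kept as pools and not as clones, after puromycin at 1 µg/ml for 7 days and 24 h without it. The labels attach the same retroviral protocol to the primary MEFs, and do not say what SE or the swaps denote, which part of a gene was deleted, or whether the 3 replicates are separate cultures.

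Levels are log2 intensities and were compared within a cell type only, because array medians of intensity ran from 5.47 to 5.93 for primary MEFs, from 55.5 to 57.6 for MIN6 cells and from 18.7 to 19.6 for SV40 MEFs. Across cell types the percentile of a probe set among the probe sets of its own array was used. Differences are limma estimates on the log2 scale with their standard error (SE) and n = 3 arrays in each group. A gene was called at a Benjamini-Hochberg adjusted p below 0.05 over all genes tested in that comparison, 13674 for primary MEFs, 13179 for MIN6 cells and 13469 for SV40 MEFs. The median SD of a gene within a group lay between 0.066 and 0.126 on the log2 scale, and 3 arrays limit the precision. Of the 16 probe sets, 14 passed the filter on dim values in primary MEFs, 14 in MIN6 cells and 12 in SV40 MEFs, and 2 (an Mdm2 and a Plk2 probe set) passed in none. The brightest that passed stood for each gene, which left 8 genes in primary MEFs and MIN6 cells and 7 in SV40 MEFs, where Perp was too dim to test.

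The labels were checked against marker and targeted genes. Fibroblast markers stood at a median percentile of 99.1 in primary MEFs and 50.9 in SV40 MEFs, and 7 of 7 measured beta-cell markers passed the filter in MIN6 cells at a median of 99.9. Hmgn1 was lower in the HMGN1 knock out (by -0.88, -0.67 and -0.89 on its 3 probe sets), and Hmgn3 was lower in the HMGN3 knock out (by -1.46 and -1.30). Hmgn5 went against its labels: it was higher by 0.72 ± 0.12 in the arrays labelled HMGN5 knock out (limma adjusted p = 0.0247) and lower by -0.93 ± 0.08 in the pools labelled HMGN5 OE (limma adjusted p = 1.12e-08). The HMGN1 swaps came with Hmgn1 called higher on 1 of its 3 probe sets (by 0.14 with HMGN1_N2swap and 0.17 with HMGN1_N3swap), and in the pools labelled HMGN5 OE it was called higher on all 3 (0.37 to 0.45). The probe set called with the swaps was also called higher with HMGN2 OE (0.18, limma adjusted p = 0.0101). Such a rise is therefore not particular to HMGN1 constructs. Of the other constructs with a probe set for their gene, HMGN3a in MIN6 cells came with more Hmgn3 (0.26 and 0.23, both called). In SV40 MEFs both Hmgn3 probe sets were also called higher with HMGN2 OE (0.39 and 0.29), HMGN1_N2swap (0.43 and 0.38) and HMGN1_N3swap (0.52 and 0.35). A rise of Hmgn3 is thus not particular to HMGN3a constructs. HMGN1 in both lines and HMGN3a and HMGN5SE in SV40 MEFs came with no called change of their own gene (values from -0.23 to -0.01). A probe outside the deleted part or outside the construct checks nothing, and the labels do not give either.

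The sequences upstream of 3 members are shown because they hold matches to the p53 half-site consensus, the 10-base arm of the p53 binding site, and because all 3 genes were called lower with both swap constructs in the comparisons that follow. They are from RefSeq (assembly GRCm38.p6), 250 bases up to the transcription start, 5′ to 3′ on the gene's strand, with half-site matches in capitals. Cdkn1a lies at chr17:29090729-29090978 on the + strand, Ccng1 at chr11:40755287-40755536 on the - strand and Mdm2 at chr10:117710759-117711008 on the - strand.
Cdkn1a: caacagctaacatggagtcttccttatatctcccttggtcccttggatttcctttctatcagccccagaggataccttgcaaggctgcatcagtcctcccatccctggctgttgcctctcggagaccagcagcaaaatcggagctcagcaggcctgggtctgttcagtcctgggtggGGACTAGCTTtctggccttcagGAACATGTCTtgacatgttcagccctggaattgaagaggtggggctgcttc
Ccng1: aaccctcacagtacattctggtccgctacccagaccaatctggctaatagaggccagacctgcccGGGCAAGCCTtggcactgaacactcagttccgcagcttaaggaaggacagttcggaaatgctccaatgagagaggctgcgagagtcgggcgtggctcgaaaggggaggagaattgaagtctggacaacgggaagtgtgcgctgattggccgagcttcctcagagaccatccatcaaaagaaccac
Mdm2: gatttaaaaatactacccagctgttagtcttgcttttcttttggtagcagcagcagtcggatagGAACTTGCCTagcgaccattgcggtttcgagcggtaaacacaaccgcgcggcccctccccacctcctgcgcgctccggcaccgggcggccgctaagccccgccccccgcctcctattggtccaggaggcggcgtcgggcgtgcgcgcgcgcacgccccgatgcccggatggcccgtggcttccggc
The motif was searched by its name's standard letters on both strands, which its consensus reads alike, and a full site was counted where 2 half-sites lay 0 to 13 bases apart. The Cdkn1a window held half-sites beginning 73 and 51 bases before the start, 12 bases apart, which make 1 full site. The Ccng1 window held 1 half-site 185 bases before the start, and the best full site around it had 1 mismatch. The Mdm2 window held 1 half-site 186 bases before the start. Of 32851 RefSeq promoter windows of 300 bases, 8.36% held a half-site and 0.0731% a full site. The windows of Sesn2, Bbc3 and Plk2 and of a second Cdkn1a start had no match, which says only that these letters are not there. Trp53inp1 and Perp had no window. Without a match, Sesn2 and Bbc3 were still called lower with HMGN1_N3swap (-0.21 each). Trp53inp1 had the largest fall of the measured genes with both swaps. Whether half-sites go with these falls was not tested, as the 3 windows were chosen with the falls known.

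Between primary and SV40-transformed MEFs, 4 of the 8 genes stood at a lower rank in all 24 SV40 arrays than in any of the 18 primary arrays, and the other 4 overlapped. Over 14466 genes, 20.6% were lower in this way and 24.3% higher, so 4 of 8 lower and 0 of 8 higher is set beside those shares as a description, with no test. Cdkn1a, the inhibitor of cyclin-dependent kinases that carries out p53 arrest, had a median percentile of 98.0 in primary MEFs (range 97.7 to 98.4) and 89.7 in SV40 MEFs (82.1 to 91.3). Ccng1, a cyclin that recruits a phosphatase to Mdm2, went from 98.8 to 93.8. Trp53inp1, a nuclear stress protein that takes part in p53 phosphorylation and autophagy, was at 90.1 (87.6 to 91.7) in primary MEFs and at 63.3 (45.3 to 81.9) in SV40 MEFs. Its SV40 range was the widest of the 8 genes in either type of fibroblast. Perp, a membrane protein of desmosomes with a role in p53 apoptosis, had medians of 52.2 and 19.8. It was below the filter in SV40 MEFs (mean 2.64 against 3.63) and entered this comparison through primary MEFs. The filter thus favours its fall, which is counted among the 4 and is given for description only.

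The 4 genes that overlapped were Mdm2 (medians 91.1 and 90.0), Sesn2 (79.3 and 78.2), Bbc3 (71.3 and 72.5) and Plk2 (97.1 and 93.4). Sesn2 encodes a stress protein that restrains mTORC1, Bbc3 the BH3-only killer protein PUMA and Plk2 a polo-like kinase. The second Cdkn1a probe set, 1421679_a_at, fell further in rank than the one that stands for the gene, from a median of 98.0 to 66.9. Transformation, line of origin, any batch and the separate normalization of the cell types cannot be told apart in this comparison. Y-linked Eif2s3y differed too, at 1.28 to 6.59 in primary MEFs and 1.64 to 2.05 in SV40 MEFs. In MIN6 cells the medians were 93.9 for Cdkn1a, 89.5 for Mdm2, 88.0 for Ccng1, 78.6 for Trp53inp1, 79.6 for Sesn2, 72.2 for Bbc3, 75.7 for Perp and 39.4 for Plk2. Plk2 in MIN6 cells was thus far below its rank in both types of fibroblast, whose arrays it did not overlap.

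**Figure D1:**
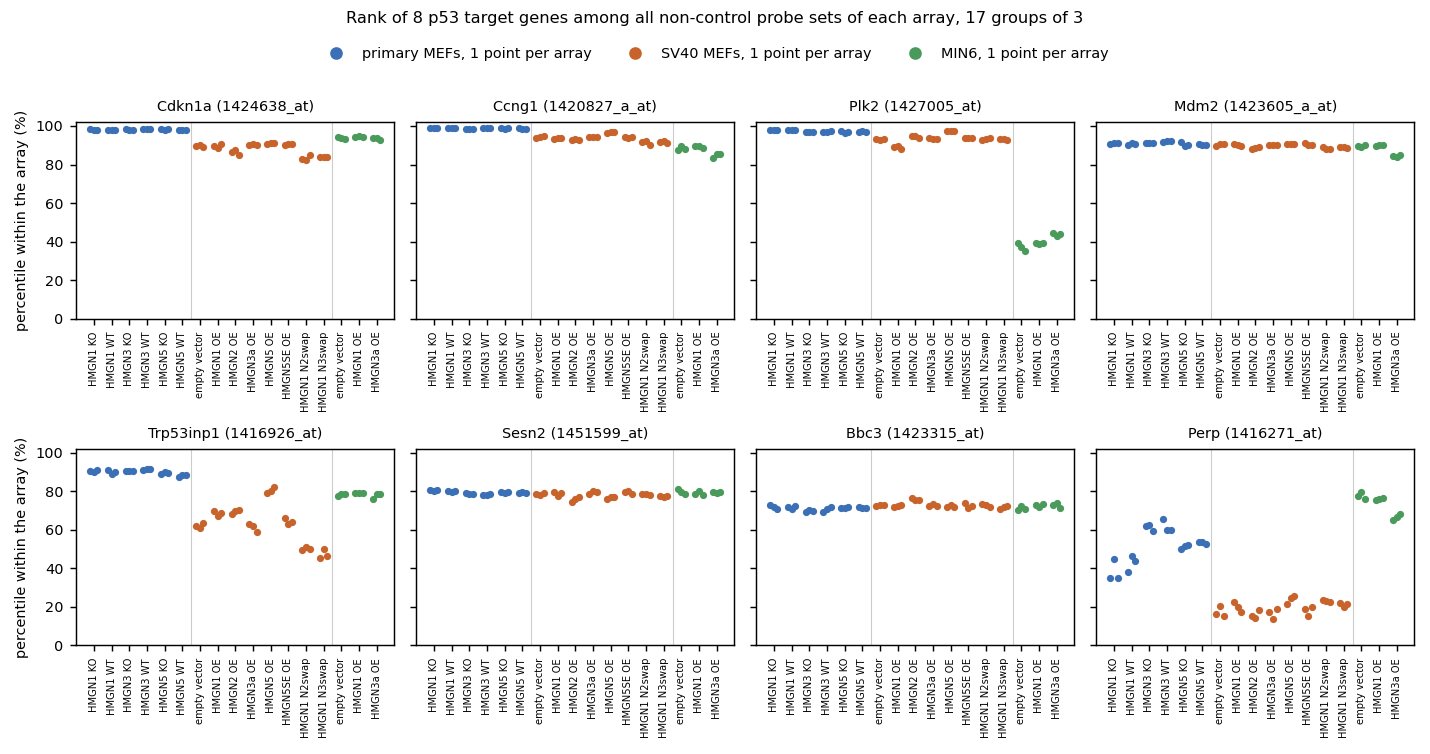
Percentile of each of the 8 genes among the non-control probe sets of its array (vertical axis, %) in the 17 groups, with 1 point per array. Cdkn1a, Ccng1 and Trp53inp1 sit lower in every SV40 array than in any primary array, Trp53inp1 is spread from 45.3 to 81.9 among the SV40 pools, and Plk2 is low in MIN6 cells.

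In SV40 MEFs the 7 pools that received a construct share 1 set of 3 empty vector arrays, so their comparisons with it are not independent and are given side by side. Of the 7 measured genes, 7 were called with HMGN2 OE, 6 with HMGN1_N3swap, 5 in the pools labelled HMGN5 OE, 4 with HMGN1_N2swap, 2 with HMGN1 OE and 0 with HMGN3a OE or HMGN5SE OE. Over all 13469 genes the called shares were 44.3% for HMGN2 OE, 37.3% for HMGN1_N3swap, 41.5% for the pools labelled HMGN5 OE, 37% for HMGN1_N2swap, 29.4% for HMGN1 OE, 0.0297% for HMGN3a OE and 0.0148% for HMGN5SE OE. The 2 of 7 under HMGN1 OE is near its share over all genes. Several other measures differed between these pools, and the fibroblast markers, RNA quality and Xist values that move with a result are given with it.

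The swap constructs came with lower levels of the arrest and feedback genes. Cdkn1a measured 8.52, 8.52 and 8.38 with the empty vector, 7.58, 7.51 and 7.85 with HMGN1_N2swap and 7.67, 7.70 and 7.68 with HMGN1_N3swap. All 6 swap arrays lay below all 3 vector arrays (42.9% of all genes had no overlap with HMGN1_N2swap and 46% with HMGN1_N3swap). The differences were -0.83 ± 0.09 (1.77-fold, limma adjusted p = 2.05e-07) and -0.79 ± 0.09 (1.72-fold, limma adjusted p = 3.99e-07).

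Trp53inp1 had the largest fall of the 7 genes with both swaps. It measured 5.21, 5.12 and 5.40 with the empty vector, 4.23, 4.33 and 4.29 with HMGN1_N2swap and 3.97, 4.29 and 4.06 with HMGN1_N3swap. These groups did not overlap with the vector. The falls were -0.96 ± 0.12 (1.95-fold, limma adjusted p = 2.24e-06) and -1.14 ± 0.12 (2.20-fold, limma adjusted p = 2.47e-07).

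Ccng1 measured 9.27, 9.34 and 9.41 with the empty vector, 8.81, 8.96 and 8.58 with HMGN1_N2swap and 8.78, 8.90 and 8.74 with HMGN1_N3swap. The swap arrays were again all lower, by -0.56 ± 0.08 (limma adjusted p = 6.53e-06) and -0.53 ± 0.08 (limma adjusted p = 1.12e-05). Its other probe sets, 1450016_at and 1450017_at, were also called lower with both swaps. Mdm2 measured 8.51, 8.65 and 8.61 with the vector, 8.38, 8.26 and 8.28 with HMGN1_N2swap and 8.44, 8.39 and 8.30 with HMGN1_N3swap. The groups did not overlap and the differences were smaller, -0.28 ± 0.06 (limma adjusted p = 0.00119) and -0.22 ± 0.06 (limma adjusted p = 0.0102).

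With HMGN1_N3swap 2 further genes were called lower. Sesn2 measured 7.09, 7.01 and 7.16 with the vector and 6.90, 6.84 and 6.88 with the swap (-0.21 ± 0.07, limma adjusted p = 0.0269). Bbc3 measured 6.40, 6.41 and 6.42 with the vector and 6.11, 6.22 and 6.27 with the swap (-0.21 ± 0.07, limma adjusted p = 0.0249). Arrays of neither gene overlapped. The 3 smallest of the 6 calls were thin: when only the compared groups were fitted, Mdm2 (adjusted p = 0.0595), Sesn2 (0.0524) and Bbc3 (0.0583) were not called, and each of the 3 was also lost when some single arrays were left out. Plk2 was not called with either swap (limma 95% intervals within -0.18 to 0.16).

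The members' medians with the swaps were -0.28 and -0.22, where the medians over all genes were -0.01 and 0.01. Among all 13469 genes 19.3% and 20% were called lower and 17.7% and 17.4% higher. RNA quality differed in the same arrays: the Actb signal at the 3' end exceeded that at the 5' end by 0.39 to 0.79 (log2) in the swap arrays and by 0.23 to 0.29 in the vector arrays. With that difference as a covariate Cdkn1a, Ccng1 and Trp53inp1 were called lower with both swaps, whereas with HMGN1_N3swap Mdm2 (-0.22, adjusted p = 0.0645) and Sesn2 (-0.13, adjusted p = 0.373) were not. Xist, the RNA of the inactive X chromosome, was at 6.88 to 7.78 in the swap arrays, at 6.16 to 6.55 with HMGN2 OE and at 4.08 to 4.91 in all other SV40 arrays, so these pools differ from their control in a way the labels do not give, whose part in the result was not tested.

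The second Cdkn1a probe set did not follow the first. On 1421679_a_at the differences were -0.11 with HMGN1_N2swap, -0.14 with HMGN1_N3swap, -0.21 with HMGN2 OE and -0.08 in the pools labelled HMGN5 OE, and none was called when every probe set was tested on its own. In that fit 32.1%, 32.6%, 39.8% and 33.3% of all probe sets were called in these comparisons. Sesn2 on 1425139_at was lower with both swaps (-0.48 and -0.65, both called), where the brighter 1451599_at was called with HMGN1_N3swap only. On this probe set Sesn2 was also higher with HMGN1 OE (0.38, limma adjusted p = 0.0025, with 20.9% of all probe sets called).

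**Figure D2:**
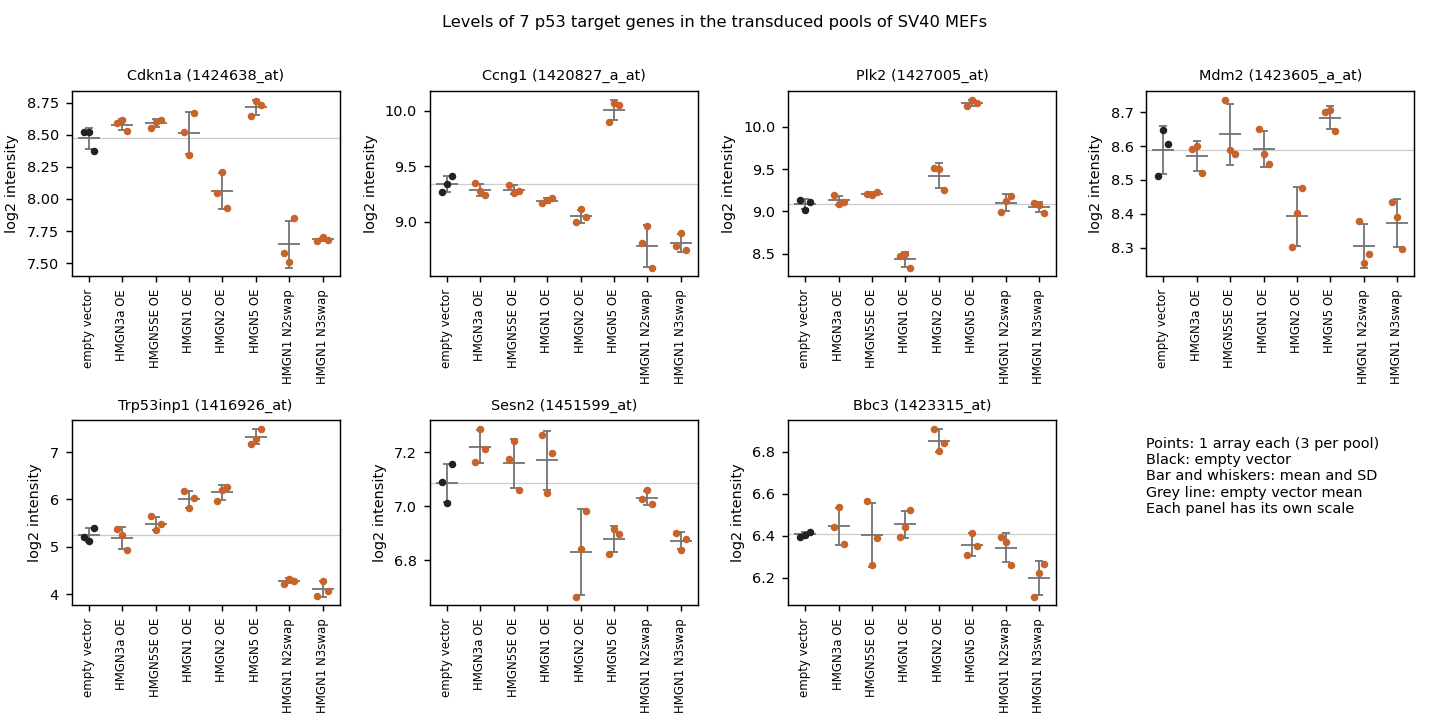
Log2 intensity of the 7 genes measured in SV40 MEFs (vertical axis) in the 8 groups, with 1 point per array, a bar at the group mean and whiskers of 1 SD (n = 3); each panel has its own scale. Cdkn1a, Ccng1 and Trp53inp1 lie lowest in the 2 swap groups, and Ccng1, Trp53inp1 and Plk2 lie highest in the pools labelled HMGN5 OE.

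The swaps were also set directly against HMGN1 OE, a contrast chosen after seeing the data. With HMGN1_N2swap 4 genes were lower and 1 higher of 7 (46.1% of all genes called), and with HMGN1_N3swap 6 were lower and 1 higher (50.9% of all genes called). Of these 6, Sesn2 was not called after quantile normalization again (adjusted p = 0.0742) or with the Actb covariate (0.0746), and Bbc3 not after the former (-0.10, adjusted p = 0.275). Trp53inp1 differed most, by -1.73 ± 0.12 and -1.90 ± 0.12 (limma adjusted p = 2.02e-10 and 3.93e-11), from means of 4.28 and 4.11 in the swaps against 6.01 with HMGN1 OE. Cdkn1a was lower by -0.87 ± 0.09 and -0.83 ± 0.09 and Ccng1 by -0.41 ± 0.08 and -0.39 ± 0.08. Plk2 was the gene that was higher, by 0.67 ± 0.07 and 0.62 ± 0.07.

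In the pools labelled HMGN5 OE, 4 genes rose and 1 fell of 7. Trp53inp1 measured 7.18, 7.29 and 7.50, against 5.21, 5.12 and 5.40 with the vector. This rise of 2.08 ± 0.12 (4.21-fold, limma adjusted p = 3.57e-12) was the largest change of any member in any of the 12 comparisons with a control. Plk2 measured 10.24, 10.32 and 10.29, against 9.13, 9.02 and 9.11, a rise of 1.19 ± 0.07 (2.29-fold, limma adjusted p = 3.98e-12). Ccng1 measured 9.90, 10.07 and 10.05, a rise of 0.67 ± 0.08 (1.59-fold, limma adjusted p = 2.24e-07), and its other probe sets rose by 0.67 and 0.71. In all 3 genes every array lay above every vector array, where 56.2% of all genes had no overlap.

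Cdkn1a and Mdm2, the members most used as readouts of p53, moved little in the same pools. Cdkn1a measured 8.64, 8.76 and 8.73 against 8.52, 8.52 and 8.38 (0.24 ± 0.09, limma adjusted p = 0.0303), and the call was lost after quantile normalization again (adjusted p = 0.0556) and without HMGN5 OE replicate 2 or 3 or vector replicate 3 (0.0958, 0.077 and 0.128). Mdm2 measured 8.70, 8.71 and 8.65 and was not called (0.10 ± 0.06, limma adjusted p = 0.244, 95% interval -0.03 to 0.23). Bbc3 was not called either (-0.05, limma adjusted p = 0.623). Sesn2 measured 6.83, 6.92 and 6.90 and fell by 0.21 ± 0.07 (limma adjusted p = 0.028), a call lost without HMGN5 OE replicate 1 (adjusted p = 0.103) or without vector replicate 1 (0.0642) or 3 (0.112). Without vector replicate 3, 3 of the 5 calls were left.

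Fibroblast markers stood higher by their summed intensity in these pools. They also stood higher with the swaps, where every called member was lower, and slightly higher with HMGN1 OE (2101.8 to 2351.7). Their summed intensity was 9664.4 to 10112.4 in the pools labelled HMGN5 OE, 6508.2 to 7910.3 with HMGN2 OE, 3122.9 to 3826.9 with the swaps and 1858.9 to 2046.0 with the vector, and 5 of 8 tested markers were called higher and 1 lower in the pools labelled HMGN5 OE (2 of the higher ones, Postn and Pdgfra, were below the filter with the vector). Their part in the result was not tested, and in bulk RNA fewer cells of a type and less RNA per cell cannot be told apart. A direct contrast of the pools labelled HMGN5 OE with HMGN5SE OE, chosen after seeing the data, gave 3 genes higher and 1 lower of 7 (42% of all genes called): Trp53inp1 by 1.83 ± 0.12, Plk2 by 1.07 ± 0.07, Ccng1 by 0.72 ± 0.08 and Sesn2 by -0.28 ± 0.07.

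With HMGN2 OE all 7 measured genes were called on the probe set that stands for each, 3 higher and 4 lower. The 4 include Ccng1, whose other probe sets were called higher. Trp53inp1 measured 5.97, 6.20 and 6.27 (0.90 ± 0.12, limma adjusted p = 3.51e-06), Bbc3 6.91, 6.80 and 6.84 (0.44 ± 0.07, limma adjusted p = 2.84e-05) and Plk2 9.52, 9.50 and 9.25 (0.33 ± 0.07, limma adjusted p = 0.000609). The largest fall was in Cdkn1a, which measured 8.05, 8.21 and 7.93 (-0.41 ± 0.09, limma adjusted p = 0.000643). So the arrest gene and the apoptosis gene moved in opposite directions, and for each of the 7 genes no HMGN2 OE array overlapped with a vector array (56.4% of all genes).

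The other falls with HMGN2 OE were smaller. Sesn2 fell by 0.26 ± 0.07 (limma adjusted p = 0.00748) and Mdm2, at 8.30, 8.40 and 8.47, by 0.20 ± 0.06 (limma adjusted p = 0.0154). Without HMGN2 OE replicate 1 neither was called (adjusted p = 0.0634 and 0.0828), and Mdm2 was also lost without vector replicate 2 (0.0737). Ccng1 depends on the probe set: 1420827_a_at fell by 0.29 ± 0.08 (limma adjusted p = 0.00374), while 1450016_at, at 8.56, 8.82 and 8.93 against 8.04, 7.96 and 8.05, rose by 0.75 ± 0.12 and 1450017_at by 0.35 ± 0.10 (limma adjusted p = 6.65e-05 and 0.0111 over all probe sets). No direction is given for Ccng1 in these pools. The Actb difference was 0.01 to 0.20 with HMGN2 OE, below that of the vector arrays.

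**Figure D3:**
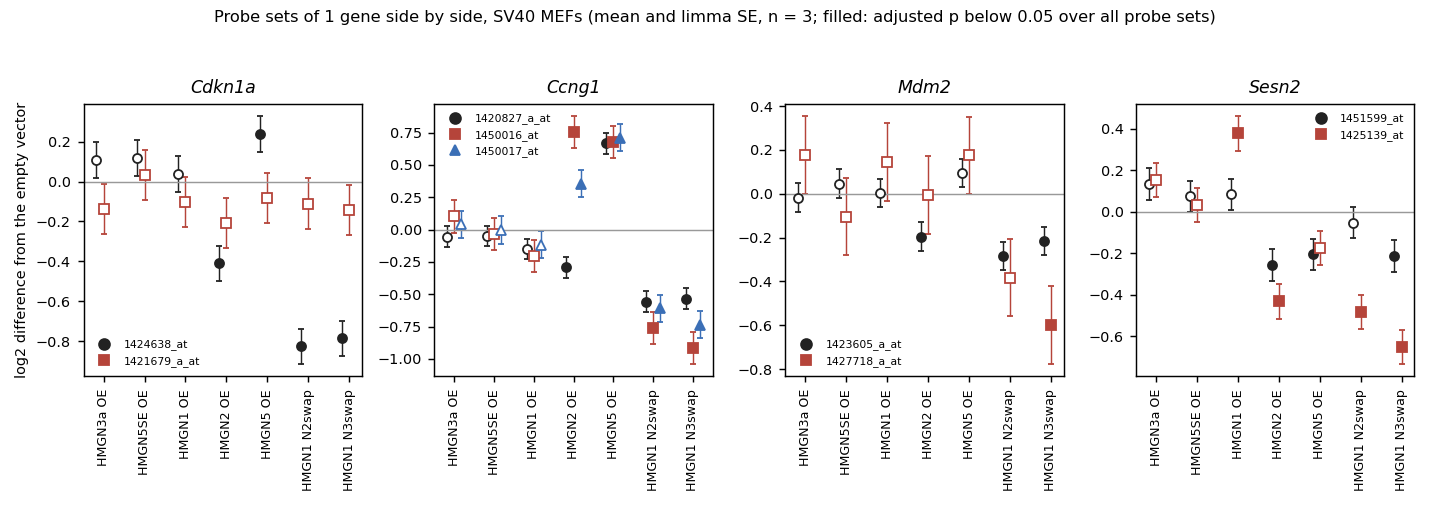
Difference from the empty vector (log2, vertical axis, mean and limma SE, n = 3) for each probe set of 1 gene that passed the filter, in SV40 MEFs, with filled symbols where called. The Ccng1 probe sets part under HMGN2 OE (-0.29, 0.75 and 0.35) and run together in the pools labelled HMGN5 OE, and Cdkn1a 1421679_a_at stays near 0 where 1424638_at is low.

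With HMGN1 OE, Trp53inp1 and Plk2 moved in opposite directions. Trp53inp1 measured 6.17, 5.81 and 6.03 (0.76 ± 0.12, limma adjusted p = 6.68e-05) and Plk2 8.47, 8.49 and 8.33 (-0.65 ± 0.07, limma adjusted p = 4.09e-07). Both groups were clear of the vector arrays. Ccng1, at 9.16, 9.20 and 9.21, also lay below all vector arrays but was not called (49.4% of all genes had no overlap here).

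With HMGN3a OE and HMGN5SE OE limma called 0 of 7 genes, and 0 of 7 had an unadjusted p below 0.05, where 10.9% and 5.23% of all genes did. The members' differences were -0.06 to 0.13 with HMGN3a OE and -0.05 to 0.24 with HMGN5SE OE, with 95% intervals inside -0.31 to 0.29 and -0.21 to 0.50. A change of the size of Trp53inp1 under the swaps lies outside those intervals.

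Ordered by mean, Trp53inp1 in SV40 MEFs ran from the pools labelled HMGN5 OE (7.32 ± 0.16, SD) to HMGN2 OE (6.15 ± 0.16), HMGN1 OE (6.01 ± 0.18), HMGN5SE OE (5.49 ± 0.14), the vector (5.25 ± 0.14), HMGN3a OE (5.19 ± 0.23), HMGN1_N2swap (4.28 ± 0.05) and HMGN1_N3swap (4.11 ± 0.16). Neighbours overlapped between HMGN2 OE and HMGN1 OE, between HMGN5SE OE, the vector and HMGN3a OE, and between the swaps. Cdkn1a ran from 8.71 ± 0.06 in the pools labelled HMGN5 OE through HMGN5SE OE (8.59 ± 0.03), HMGN3a OE (8.58 ± 0.04), HMGN1 OE (8.51 ± 0.16) and the vector (8.47 ± 0.08) to HMGN2 OE (8.06 ± 0.14), HMGN1_N3swap (7.69 ± 0.01) and HMGN1_N2swap (7.65 ± 0.18). HMGN2 OE stood apart from both of its neighbours in that order, and the swaps overlapped with each other.

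In MIN6 cells HMGN3a OE came with a fall of Perp, Mdm2 and Ccng1. Perp measured 8.28, 8.48 and 8.12 with the vector and 7.03, 7.22 and 7.36 with HMGN3a OE, a difference of -1.10 ± 0.10 (2.14-fold, limma adjusted p = 2.25e-05). Mdm2 measured 9.55, 9.53 and 9.68 against 8.87, 8.90 and 8.98 (-0.67 ± 0.06, limma adjusted p = 1.8e-05), and its other probe set gave -0.83. Ccng1 measured 9.33, 9.55 and 9.36 against 8.78, 9.05 and 9.04 (-0.46 ± 0.09, limma adjusted p = 0.0034), with -0.30 and -0.42 on its other probe sets. Every HMGN3a OE array of these 3 genes was below every vector array (44.8% of all genes had no overlap).

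Plk2 was called higher with HMGN3a OE, at 5.48, 5.33 and 5.40 against 5.09, 4.94 and 4.82 (0.45 ± 0.07, limma adjusted p = 0.000916). It passed the filter at 5.13 through the HMGN3a OE group alone, so that call is given for description only. In all, 1 gene was called higher and 3 lower of 8, and 34.1% of all genes were called. Cdkn1a measured 10.31, 10.29 and 10.12 with the vector and 10.13, 10.27 and 10.07 with HMGN3a OE and was not called, nor were Trp53inp1, Sesn2 or Bbc3. Epithelial markers moved too: their summed intensity was 6102 to 6570 with HMGN3a OE and 4339 to 4533 with the vector, and 3 of 5 tested (Epcam 1.07, Krt18 0.54 and Cdh1 0.48) were called higher. Perp is itself a gene of epithelial junctions, and the part of these markers in its fall was not tested.

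HMGN1 OE in MIN6 cells gave 0 of 8 calls by limma (1.15% of all genes called). Cdkn1a, at 10.42, 10.44 and 10.36, lay above all 3 vector arrays with an unadjusted p of 0.0396 and a limma adjusted p of 0.27 (0.17 ± 0.07). It was the 1 member below 0.05 unadjusted, as were 17% of all genes, and 24.7% of all genes had no overlap. The members' 95% intervals lay inside -0.43 to 0.33.

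The lines were compared by the difference between the effects of 1 construct, MIN6 minus SV40, over 12151 genes. For HMGN1 OE 2 of 7 genes differed (23.4% of all genes called) and for HMGN3a OE 3 of 7 (21%). Each count holds Plk2, which in MIN6 cells was below the filter with the vector (4.95) and with HMGN1 OE (5.09) and is given for description only. Without it 1 of 6 and 2 of 6 genes differed. Trp53inp1 changed by 0.05 in MIN6 cells and 0.76 in SV40 MEFs with HMGN1 OE, a difference of -0.71 ± 0.16 (limma adjusted p = 0.00187). Mdm2 changed by -0.67 in MIN6 cells and -0.02 in SV40 MEFs with HMGN3a OE, a difference of -0.65 ± 0.08 (limma adjusted p = 1.41e-06). With HMGN3a OE the targeted Hmgn3 was called higher in MIN6 cells and not in SV40 MEFs.

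**Figure D4:**
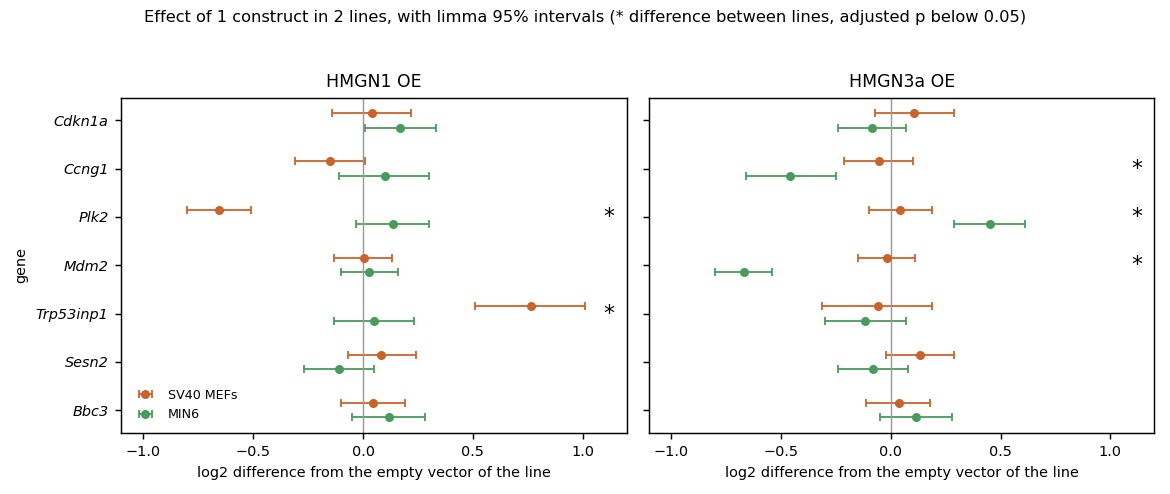
Difference from the empty vector of the same line (log2, horizontal axis) for the 7 genes measured in both lines, with limma 95% intervals, for HMGN1 OE and HMGN3a OE. An asterisk marks a called difference between the lines: Trp53inp1 and Plk2 for HMGN1 OE, and Mdm2, Ccng1 and Plk2 for HMGN3a OE, where Plk2 in MIN6 cells was below the filter with the vector and with HMGN1 OE.

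In primary MEFs, where p53 is not bound by T antigen, limma called 0 of 8 members in each of the 3 knock outs. Over all genes 0.439% were called in the HMGN1 knock out, 0.585% in the HMGN3 knock out and 0.0731% in the arrays labelled HMGN5 knock out. In the HMGN1 knock out 0 of 8 members had an unadjusted p below 0.05, where 15.5% of all genes did, and the arrays of all 8 overlapped (21% of all genes did not overlap). Their differences were -0.16 to 0.13, with 95% intervals inside -0.49 to 0.29. The lowest of both belong to Perp, whose mean in this knock out (1.94) was below the filter of 1.99. The replicates of this knock out were not of like sex: Y-linked Eif2s3y measured 5.85, 1.28 and 5.23 and Xist 3.14, 8.61 and 7.40, where the 3 WT arrays had Xist at 8.63, 8.61 and 8.56 and Eif2s3y at 1.41, 1.31 and 1.41. The arrays labelled HMGN5 knock out were mixed too (Xist at 8.72, 2.60 and 7.69). With the Y-linked signal as a covariate limma again called 0 of 8 members in each knock out. No share of all genes is set beside that count.

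The HMGN3 knock out had 4 members with an unadjusted p below 0.05, where 8.47% of all genes did, and 6 whose 3 arrays all lay below those of the WT, where 15.9% of all genes had no overlap in either direction. Cdkn1a measured 9.65, 9.56 and 9.50 against 9.78, 9.77 and 9.77 (-0.20 ± 0.07, limma adjusted p = 0.407). Mdm2 measured 7.29, 7.28 and 7.32 against 7.48, 7.50 and 7.46 (-0.18 ± 0.08, limma adjusted p = 0.53). Ccng1 (-0.16 ± 0.06, limma adjusted p = 0.46) and Trp53inp1 (-0.19 ± 0.08, limma adjusted p = 0.489) were the other 2. None held after adjustment over all genes, so these stand as values and not as changes. In the arrays labelled HMGN5 knock out 1 member had an unadjusted p below 0.05, where 5.59% of all genes did: Trp53inp1 at 6.95, 7.04 and 7.00 against 6.73, 6.85 and 6.83 (0.19 ± 0.08, limma adjusted p = 0.733). Its arrays did not overlap, as in 11.1% of all genes.

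**Figure D5:**
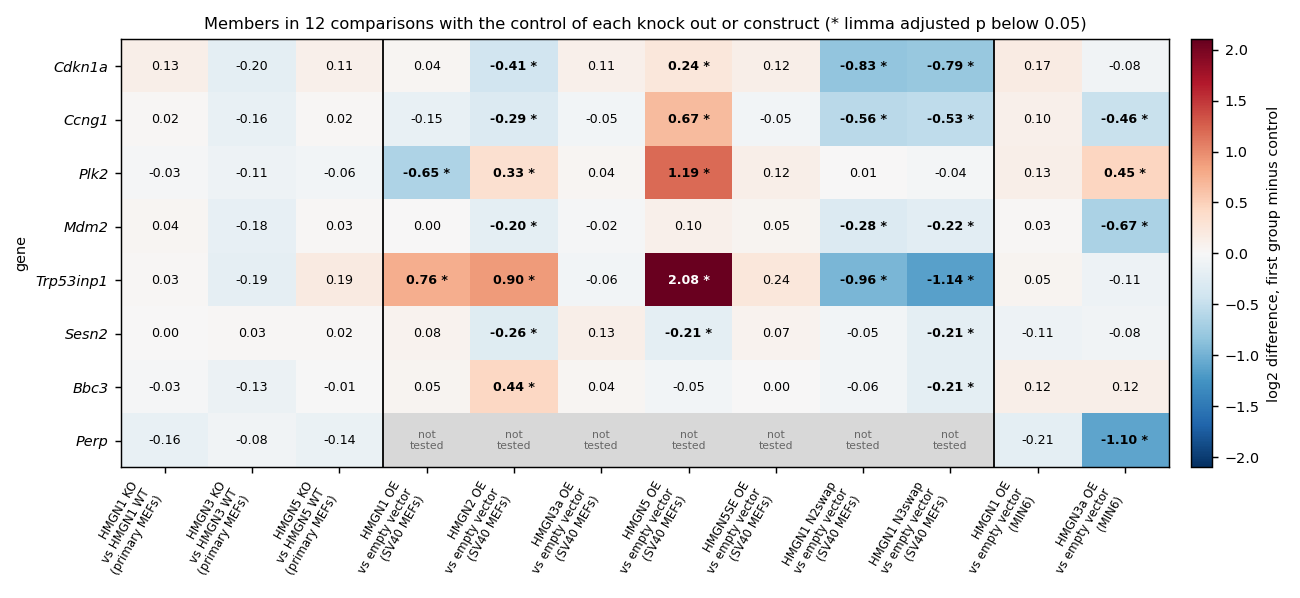
Log2 difference from the control (colour and number) of each member in the 12 comparisons with a control (3 knock outs and 9 constructs), with an asterisk where called and grey where not tested. The knock out columns hold no asterisk, every asterisk in the swap columns is a fall, Plk2 with HMGN3a OE in MIN6 cells rests on a vector level below the filter, and Trp53inp1 at 2.08 in the pools labelled HMGN5 OE is the largest value.

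The 3 WT groups differed from each other more than any knock out differed from its WT. HMGN3 WT against HMGN1 WT gave 4 members higher and 3 lower of 8 (31.5% of all genes called), HMGN5 WT against HMGN1 WT 1 higher and 2 lower (11.7%) and HMGN5 WT against HMGN3 WT 1 higher and 4 lower (17.2%). The 1 higher in the last was Sesn2 (0.15, limma adjusted p = 0.041), whose call was lost in 10 of the alternative settings. Perp measured 3.99, 3.36 and 3.31 in HMGN3 WT, 2.74, 2.74 and 2.66 in HMGN5 WT and 1.90, 2.28 and 2.13 in HMGN1 WT, with no overlap between the groups. Over all genes 46.2% had no overlap between HMGN3 WT and HMGN1 WT, 34.4% between HMGN5 WT and HMGN1 WT and 36.5% between HMGN5 WT and HMGN3 WT. HMGN3 WT was above HMGN1 WT by 1.45 ± 0.16 (limma adjusted p = 7.43e-06). The HMGN3 knock out lay at 3.52, 3.59 and 3.31, near its own WT.

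Cdkn1a measured 9.78, 9.77 and 9.77 in HMGN3 WT, 9.43, 9.28 and 9.39 in HMGN1 WT and 9.43, 9.37 and 9.40 in HMGN5 WT. HMGN3 WT was above HMGN1 WT by 0.40 ± 0.07 (limma adjusted p = 0.000872), and HMGN5 WT was below HMGN3 WT by -0.37 ± 0.07 (limma adjusted p = 0.00253). Sesn2 (-0.28 ± 0.05) and Plk2 (-0.43 ± 0.09) were lower in HMGN3 WT than in HMGN1 WT. The cultures were not of like sex: all HMGN3 WT and HMGN5 WT arrays carried the Y-linked Eif2s3y at a high level and all HMGN1 WT arrays carried Xist instead. With the Y-linked signal as a covariate, Cdkn1a, Mdm2 and Perp were called between HMGN3 WT and HMGN1 WT (3 of 8) and 0 of 8 between HMGN5 WT and HMGN1 WT. No share of all genes is set beside these counts, so a loss of calls across all genes cannot be told apart here. Nor can the counts separate sex from culture, because the Y-linked signal varied little within a WT group. Its slope came mostly from the mixed HMGN1 and HMGN5 knock out arrays. Macrophage markers moved with the same groups, at a summed intensity of 1067.9 to 1165.7 in HMGN3 WT, 439 to 474 in HMGN1 WT and 504 to 939 in HMGN5 WT. Of these markers 5 of 8 were called between the first 2, all higher in HMGN3 WT. Epithelial markers were much dimmer, with 5 of 7 passing the filter in primary MEFs. Their sums were 64.9 to 69.4 in HMGN3 WT, 46.1 to 48.0 in HMGN1 WT and 48.9 to 49.4 in HMGN5 WT. The part of both lists in the result was not tested.

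Over the 12 comparisons with a control, Ccng1 and Trp53inp1 were each called in 5, Cdkn1a, Mdm2 and Plk2 in 4 (1 of those of Plk2 being the MIN6 call that rests on a dim level), Sesn2 in 3, Bbc3 in 2 and Perp in 1 of the 5 in which it was tested. The 5 of Ccng1 include HMGN2 OE, where its probe sets part and no direction is given. All 4 calls of Mdm2 and all 3 of Sesn2 were lower on the probe set that stands for each gene. On its other probe set Sesn2 was called higher with HMGN1 OE and lower with both swaps. The second Cdkn1a probe set was not called in any of the comparisons counted for Cdkn1a. Trp53inp1 was called higher in 3 and lower in 2. Calls in SV40 MEFs share their vector arrays and are not independent of each other.

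A list of 20 other p53 targets had 19 tested in SV40 MEFs and primary MEFs and 15 in MIN6 cells. With HMGN1_N2swap 2 were called higher and 8 lower (median -0.19), among them Pltp (-0.75 ± 0.11) and Btg2 (-0.74 ± 0.12) lower and Sesn1 (0.75 ± 0.11) higher. With HMGN1_N3swap 2 were higher and 10 lower (median -0.24), led by Btg2 (-1.32 ± 0.12), a gene against proliferation, Pltp (-0.99 ± 0.11) and Gadd45a (-0.86 ± 0.11). The pools labelled HMGN5 OE had 6 higher and 5 lower (median 0.13): Gadd45a (-1.35 ± 0.11) and Tigar (-1.04 ± 0.10) fell. The called totals were 10, 12 and 11 of 19, beside 37%, 37.3% and 41.5% of all genes. They include 2 genes that were below the filter of 3.63 with the vector. Pmaip1, which encodes the BH3-only protein NOXA, passed through HMGN2 OE (4.34 against 3.20 with the vector) and was below the filter with both swaps and in the pools labelled HMGN5 OE. The death receptor gene Fas was at 3.54 with the vector, and at 4.71 in the pools labelled HMGN5 OE. Their calls are given for description only.

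With HMGN2 OE 5 of those 19 were higher and 3 lower (median 0.02), near the 44.3% of all genes, with Tigar at -0.68, Rrm2b at -0.64 and Eda2r at 0.62. The 5 include Pmaip1, which was below the filter with the vector (3.20 against 3.63), so that call is given for description only. With HMGN1 OE 4 were higher and 0 lower (Apaf1 0.40, Sesn1 0.38, Ddit4 0.36 and Eda2r 0.35), where 29.4% of all genes were called. In MIN6 cells with HMGN3a OE 3 of 15 were higher and 5 lower (median -0.14, with 34.1% of all genes called), led by Aen (-0.68 ± 0.07), Gadd45a (-0.53), Tigar (-0.49) and Zmat3 (-0.48). Limma called 0 in each of the 3 knock outs, with HMGN3a OE or HMGN5SE OE in SV40 MEFs and with HMGN1 OE in MIN6 cells, where 0 to 3 of the list had an unadjusted p below 0.05. Over all genes, 0.0148% to 1.15% were called there and 5.23% to 17% had an unadjusted p below 0.05.

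Of 14 regulators of p53, 13 had a probe set, and Trp53 itself was not analysed here. Cdkn2a, whose product ARF restrains Mdm2, rose with HMGN1_N2swap (0.83), HMGN1_N3swap (1.02), HMGN1 OE (0.61) and in the pools labelled HMGN5 OE (0.62). The kinase gene Hipk2 fell with both swaps (-0.54 each) and rose with HMGN2 OE (0.31) and in the pools labelled HMGN5 OE (0.44). Mdm4, the partner of Mdm2, fell with HMGN2 OE by 0.23 (limma adjusted p = 0.0238) and rose with HMGN3a OE in MIN6 cells by 0.21 (limma adjusted p = 0.0262). Of the 12 tested in SV40 MEFs, 3 rose and 1 fell with each swap, 4 rose and 4 fell in the pools labelled HMGN5 OE, 6 rose and 0 fell with HMGN1 OE, and 2 rose and 1 fell with HMGN2 OE. The 4 of 12 with each swap is near the share of all genes called (37% and 37.3%), that in the pools labelled HMGN5 OE (41.5%) and with HMGN1 OE (29.4%) above it, and that with HMGN2 OE (44.3%) below it. The kinase gene Chek1 was the 1 called in a knock out, lower in the HMGN1 knock out by -0.53 ± 0.09 (limma adjusted p = 0.0146).

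Sesn2 and Gdf15 also answer to the integrated stress response, in which ATF4 drives genes of amino acid supply. Of 10 genes of that response 8 fell and 1 rose in the pools labelled HMGN5 OE (median -0.51), where Sesn2 fell as well. Trib3 (-1.35 ± 0.12), Chac1 (-1.28 ± 0.08), Asns (-0.82 ± 0.07) and Atf3 (-0.76 ± 0.10) led, and Nupr1 rose (0.31). With HMGN2 OE 6 fell and 2 rose (median -0.21), with HMGN1_N2swap 3 fell and 0 rose (median -0.02), with HMGN1_N3swap 4 fell and 0 rose (median -0.15), with HMGN1 OE 2 fell and 2 rose (median -0.05), and in MIN6 cells with HMGN3a OE 3 fell and 0 rose (median -0.03). The shares of all genes called were 41.5% in the pools labelled HMGN5 OE, 44.3% with HMGN2 OE, 37% and 37.3% with the swaps, 29.4% with HMGN1 OE and 34.1% with HMGN3a OE in MIN6 cells, so the last 4 counts, at 3 or 4 of 10, lie near their background. Sesn3, a paralogue of Sesn2, fell with the swaps (-0.98 and -0.97) and rose with HMGN2 OE (0.91).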

How the data were processed

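RNA from 51 samples was hybridized to Affymetrix mouse arrays. The authors deposited linear intensities per probe set, after RMA, a method named in the submitters' processing notes (version not given in the sources used here). All value columns were used (0 unused), turned into log2 values from the deposited intensities and not normalized further. The members, lists and tests were chosen with earlier results of these data known. Gene names came from the annotation of the probe sets (18193 genes, 34945 probe sets with 1 symbol, 932 with several, 9160 with none, 64 controls). Probe sets with no group mean above the 40th percentile of the cell type's group means (a log2 of 1.99 for primary MEFs, 5.13 for MIN6 and 3.63 for SV40 MEFs) were left out, and the brightest remaining probe set stood for a gene.

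A model with a mean per group was fitted across all genes of a cell type with lmFit and eBayes of limma 3.58.1, under R 4.3.3 with the package data.table in version 1.17.8. Tests are two-sided. As the labels do not say that replicates are separate cultures, p-values measure only the spread between these samples, which may be technical. The exceptions are the HMGN1 and HMGN5 knock outs, whose arrays differed in Y-linked and Xist signal and so were not all of the same cells. The fit of primary MEFs pools the spread of these groups with that of the WT groups. No pair of arrays held identical values. The rule for named genes took all members, up to 4 called genes of each other list with the largest change, Mdm4, and the 3 genes most like Cdkn1a, Mdm2 and Ccng1. Same-numbered replicates did not deviate together: in no comparison were all 3 correlations of their deviations above 0.1. Alternatives were leaving out each array, a Y-linked or an Actb covariate, fits of the compared groups alone, a replicate block, a second quantile normalization, tests of each probe set by itself and no filter. The procedure was tested on simulated data. Figures used python 3.11.15 with pandas 2.3.3 and matplotlib 3.10.9.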

Additional observations from a re-analysis of the deposited data

Results flagged for a closer look

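The effect of a construct on Mdm2, Ccng1, Trp53inp1 or Plk2 differed between MIN6 cells and SV40 MEFs by limma's test of the difference itself (MIN6 minus SV40). For HMGN1 OE, Trp53inp1 differed by -0.71 ± 0.16 (limma adjusted p = 0.00187), from 0.05 in MIN6 cells and 0.76 in SV40 MEFs. Plk2 differed by 0.79 ± 0.10 (limma adjusted p = 1.38e-06), from 0.13 and -0.65, and its MIN6 levels with the vector (4.95) and HMGN1 OE (5.09) were both below the filter of 5.13, so this difference is given for description only. For HMGN3a OE, Mdm2 differed by -0.65 ± 0.08 (limma adjusted p = 1.41e-06), from -0.67 and -0.02. Ccng1 differed by -0.40 ± 0.12 (limma adjusted p = 0.0136), from -0.46 and -0.05, and this was lost without MIN6 HMGN3a OE replicate 1 (-0.31, adjusted p = 0.0579) or MIN6 vector replicate 2 (-0.34, adjusted p = 0.0502). Plk2 differed by 0.41 ± 0.10 (limma adjusted p = 0.0039), from 0.45 and 0.04, with the same limit on its level with the vector.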

How the results depend on the processing

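On the probe set that stands for a gene, no member changed direction while called under any alternative run. On its other probe sets Ccng1 was called higher with HMGN2 OE (0.75 and 0.35, against -0.29). Of the values for single members and for all genes in comparisons with a control, 1013 kept their side of the threshold or stayed close, 12 moved and 27 lost their call. Members called in the pools labelled HMGN5 OE ranged from 3 to 5 when single arrays were left out (5 with all, 3 without vector replicate 3), and with HMGN1_N3swap from 4 to 5 (6 with all arrays, 3 when only the compared groups were fitted). For HMGN3 WT against HMGN1 WT the count was 7, and 4 with no filter, with every probe set on its own or with the replicate block, 3 with the Y-linked covariate, and 4 to 6 when single arrays were left out (4 without HMGN3 WT replicate 1 or 2 or HMGN1 WT replicate 3). For HMGN5 WT against HMGN1 WT it was 3, and 0 with the Y-linked covariate. For HMGN5 WT against HMGN3 WT it was 5 and ranged from 4 to 6, with Sesn2 lost in 10 settings. No share of all genes is set beside these member counts. Fewer calls among the members thus cannot be told here from fewer calls over all genes. The replicate block left the member count of every comparison with a control as it was (for example 4 with HMGN1_N2swap); same-numbered replicates share only a number. The causes were not tested. Small differences are limited by 3 arrays a group, and Perp in SV40 MEFs and in the HMGN1 arrays of primary MEFs by its signal.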

Other observations

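Genes of the BCL2 family, which decide on apoptosis at the mitochondrion, moved in both directions in 5 SV40 pools and in MIN6 cells with HMGN3a OE. Of 11 tested, Bcl2l11, which encodes the BH3-only protein BIM, rose with HMGN1 OE (0.97 ± 0.14), HMGN2 OE (0.80 ± 0.14), HMGN1_N2swap (0.81 ± 0.14), HMGN1_N3swap (0.80 ± 0.14) and in the pools labelled HMGN5 OE (0.75 ± 0.14). These comparisons share their vector arrays. Bid fell with HMGN1_N2swap (-0.51), HMGN1_N3swap (-0.61), HMGN1 OE (-0.36) and with HMGN3a OE in MIN6 cells (-0.63). Family members called higher and lower numbered 2 and 3 with HMGN1 OE, 5 and 2 with HMGN2 OE, 4 and 3 with HMGN1_N2swap, 4 and 2 with HMGN1_N3swap, 3 and 2 in the pools labelled HMGN5 OE, and 5 and 1 with HMGN3a OE in MIN6 cells. The shares of all genes called there were 29.4%, 44.3%, 37%, 37.3%, 41.5% and 34.1%. Of those called higher, Bmf was below the filter with the vector (3.53 against 3.63) in HMGN2 OE and both swaps. Limma called 0 of 11 with HMGN3a OE and HMGN5SE OE in SV40 MEFs and HMGN1 OE in MIN6 cells, and 0 had an unadjusted p below 0.05. In the knock outs limma called 0 of 11, with 0 or 1 at an unadjusted p below 0.05. Over all genes, 0.0148% to 1.15% were called in these comparisons without a family call, so 0 calls is near the background. At an unadjusted p below 0.05 the shares of all genes were 5.23% to 17%.

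Of 11 genes of proliferation, limma called 6 higher and 0 lower with HMGN1 OE in SV40 MEFs (median 0.28), among them Plk1 (0.50), Pcna (0.36), Bub1 (0.34) and Cdk1 (0.31), where 29.4% of all genes were called. In the HMGN1 knock out 1 was called (Mcm2, -0.40 ± 0.08), the median was -0.42, and 9 of 11 had an unadjusted p below 0.05, where 15.5% of all genes did. With HMGN3a OE in MIN6 cells 6 rose and 1 fell (34.1% of all genes called), with Mki67 at 0.39. With the swaps 1 rose and 1 fell in each (37% and 37.3%), with HMGN2 OE 2 rose and 2 fell (44.3%), and in the pools labelled HMGN5 OE 2 rose and 3 fell (41.5%).

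The genes most like Cdkn1a by Pearson correlation over 51 arrays, each as its deviation from the mean of its cell type and among 11707 genes, were Tpp1 (0.90), Suox (0.86) and Bcl2l2 (0.86). Those most like Mdm2 were Patj (0.85), Slc19a2 (0.82) and Eps8 (0.80), and those most like Ccng1 were Fuca2 (0.92), Nmt1 (0.88) and Sulf2 (0.88). The arrays of a group share their construct or genotype, so the number of independent points is smaller. Within cell types the likeness was uneven: with Cdkn1a, Suox had 0.94 in SV40 MEFs, 0.58 in MIN6 cells and 0.28 in primary MEFs, and Bcl2l2 0.91, 0.07 and 0.56. With Ccng1, Sulf2 had 0.92 in SV40 MEFs, 0.93 in MIN6 cells and 0.17 in primary MEFs. With Mdm2, Slc19a2 had 0.53 in SV40 MEFs, 0.99 in MIN6 cells and 0.82 in primary MEFs.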
